A study of Mus musculus with 12 samples.

Results

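Nes, Vim, Fabp7, Prom1, Pax6, Nr2e1, Msi1, Msi2, Cdh2 and Hmga2 are genes by which radial glia and neural stem cells are commonly recognised. They were taken by gene symbol, from a list drawn up with earlier results of these data known, and make up 10 of the 37620 genes counted. They were followed in 12 RNA libraries of mouse neural stem cells, 3 in each of 4 groups. E12KO cells were homozygous for loss of E12 (E12-/-) and E47KO cells for loss of E47 (E47-/-). E12wt and E47wt cells were wild type (E12+/+ and E47+/+) and came from litter mates of the E12 and E47 knockouts, respectively. The gene Tcf3 encodes both E12 and E47, a pair of basic helix-loop-helix transcription factors (E proteins) that differ by splicing. All 4 groups had the C57BL/6J background, came from embryos at embryonic day 14.5 and were expanded in medium with FGF-2 and EGF. The labels mention no sorting. They leave unsaid if replicate libraries stem from different embryos or cultures, so each p-value here speaks only of the spread among the libraries sequenced, part of which may be technical. Counts over the whole Tcf3 gene take in both splice forms and do not check the genotype labels.

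Radial glia are the elongated stem cells of the embryonic brain. They span the wall of the neural tube, are joined to each other at the inner surface by cadherin-based junctions, and give rise to neurons, to intermediate progenitors and later to glia. The genes described here fall into 4 kinds: the cytoskeletal and lipid-binding proteins of the radial fibre (Nes, Vim, Fabp7), the membrane proteins of the apical side (Prom1, Cdh2), the transcription factors of the stem cell nucleus (Pax6, Nr2e1), and regulators of RNA and chromatin that keep progenitors dividing (Msi1, Msi2, Hmga2). E proteins bind DNA at E-boxes, short sequences of the form CANNTG, often as partners of proneural factors.

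Depth was 34515297 to 56835783 gene reads per library, and a floor of 3 reads lay between 0.0528 and 0.0869 CPM (counts per 1000000 gene reads, scaled between libraries by edgeR's TMM method). One library stood apart. Along the leading principal axis (31.2% of variance), E47KO replicate 2 lay at 73.6, while the other 11 libraries lay between −30.6 (E12wt replicate 3) and 14.7. Its correlations with the other E47KO libraries, 0.977 and 0.965, were the lowest within any group. Sex-linked transcripts also differed within a group: Xist, which is made from the inactive X chromosome, was at 0.252 to 0.835 CPM in the 3 E47KO libraries and E47wt replicate 2, and at 885 CPM or more in the other 8 libraries, so the E47 groups differed in sex. Because E47KO replicate 2 stood apart, fold changes of the 10 genes in E47KO are also given without it. Medians of other gene lists that moved are given in the same way. This does not even out the sexes, as the other E47KO libraries also had low Xist. The count of calls over all genes in E47KO was 2 without E47KO replicate 2 as well.

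Hmga2 is the textbook target of the let-7 microRNAs, which build up as neural progenitors age, so the let-7 seed and its matches in Hmga2 are shown first. The seed, bases 2 to 8 of the microRNA, is in capitals in the microRNA, and its reverse complement, CTACCTC, is in capitals in the Hmga2 sites. Of the 10 mouse let-7 sequences in RefSeq (GRCm38.p6), 9 share this seed. The 3′ untranslated region (UTR) of the Hmga2 transcript used here, from GENCODE vM21 on GRCm38, is 3014 bases long and holds 4 matches, at bases 58-64, 1295-1301, 1733-1739 and 2591-2597 counted from its first base.
let-7a-5p: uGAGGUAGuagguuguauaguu
Hmga2 match 1: ggcgccgacattcaatttCTACCTCa
Hmga2 match 2: aatccccactcctcaataCTACCTCt
Hmga2 match 3: ttcctgatttgcaaggaaCTACCTCc
Hmga2 match 4: tacaatcaaaacacactaCTACCTCt
The 3′ UTRs of the other 9 genes held no match on the transcript strand. Among 20993 genes, 9.02% had at least 1 match and 12 had 4 or more. Of 2437 genes whose 3′ UTR was 0.8 to 1.25 times as long as that of Hmga2, 16.0% had a match and 0.123% had 4 or more. The libraries did not measure mature let-7, and a match is a description of the sequence only.

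Promoters are shown because the factors removed bind E-boxes. RefSeq held a start site on GRCm38.p6 for 8 of the 10 genes, with 12 starts in all, and 250 bases upstream were searched for CANNTG on both strands. CANNTG occurred in 66.2% of 32851 promoters of that length. The forms CAGCTG, in 13.0% of all promoters, and CAGGTG or CACCTG, in 17.2%, are subsets of CANNTG. Below are the promoter of Prom1, which holds a CACCTG, and that of Fabp7, which encodes the most abundant transcript of the set and whose promoter holds 2 CANNTG matches. Capitals mark the matches, and the sequences read 5′ to 3′ on the strand of the gene.
Prom1, chr5:44101737-44101986, minus strand: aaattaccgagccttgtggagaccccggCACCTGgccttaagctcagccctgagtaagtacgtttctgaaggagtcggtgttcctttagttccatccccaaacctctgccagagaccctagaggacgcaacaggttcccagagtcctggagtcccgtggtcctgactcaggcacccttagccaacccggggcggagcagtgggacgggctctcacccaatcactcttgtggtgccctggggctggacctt
Fabp7, chr10:57784673-57784922, plus strand: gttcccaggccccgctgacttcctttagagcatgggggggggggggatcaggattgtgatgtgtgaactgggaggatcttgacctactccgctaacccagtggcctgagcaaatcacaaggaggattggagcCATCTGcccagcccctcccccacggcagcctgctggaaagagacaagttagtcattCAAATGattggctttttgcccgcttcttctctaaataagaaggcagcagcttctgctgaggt
The promoters of Nes, Vim and Hmga2 had no CANNTG in this window, Nr2e1 had 1, the Msi2 starts had 1 or 2, and of the Pax6 and Prom1 starts 1 each had a match and 1 had none. Which E-boxes are bound was not measured.

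All 10 genes were expressed in all 12 libraries, but at levels that spread over 3 orders of magnitude per length of transcript. Fabp7, the brain fatty acid-binding protein, led with 2260 ± 203 CPM per kb of exon (mean ± SD over the 12 libraries, here and below), rank 5 of 12322 genes. Vim, the intermediate filament vimentin, followed with 415 ± 35.6 CPM per kb (rank 54), and Nes, the large intermediate filament nestin, with 236 ± 24.7 CPM per kb (rank 122). These fibre proteins thus stood far above the rest of the set. Cdh2, the N-cadherin of the apical junctions, stood at 30.2 ± 1.53 CPM per kb and Msi2, the RNA-binding protein Musashi-2, at 21.8 ± 1.80 CPM per kb. Nr2e1, the orphan nuclear receptor Tlx, was at 10.8 ± 0.871 CPM per kb, and Msi1, Musashi-1, at 6.13 ± 2.29 CPM per kb. Pax6, the paired-box factor of dorsal progenitors, was at 4.40 ± 0.501 CPM per kb, Hmga2, an architectural chromatin protein of young stem cells, at 3.01 ± 0.831 CPM per kb, and Prom1, the pentaspan membrane protein CD133, at 2.07 ± 0.539 CPM per kb.

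In this order the ranges over the libraries did not overlap between any of the neighbours from Fabp7 down to Nr2e1. The ranges of Nr2e1 and Msi1, Msi1 and Pax6, Pax6 and Hmga2, and Hmga2 and Prom1 did overlap. Within libraries, Nr2e1 was above Msi1 and Pax6 above Hmga2 in all 12, while Msi1 was above Pax6, and Hmga2 above Prom1, in 11. Exon lengths came from an annotation of another build than the authors used, so the order is approximate where levels lie close.

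**Figure D1:**
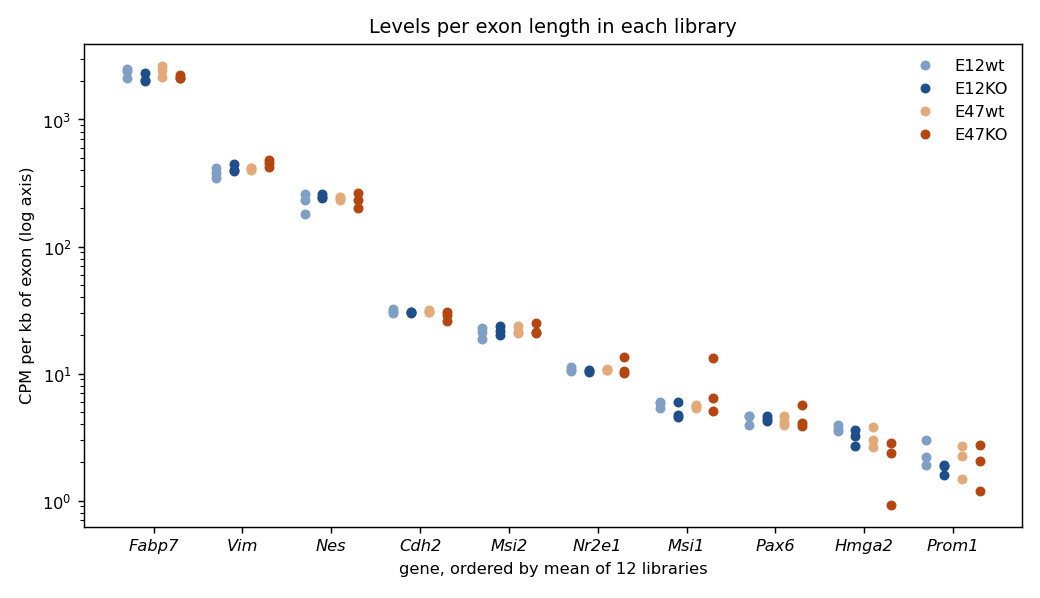
Level of each gene per kb of exon (log axis) in the 12 libraries, coloured by group and ordered by the mean. Fabp7, Vim and Nes lie at 181 CPM per kb or more in every library, and Hmga2 and Msi1 each have 1 E47KO library away from the rest.

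The genes differed as much in how steady they were. The SD of log2 CPM over the 12 libraries was 0.0761 for Cdh2, lower than for all but 7.65% of the 9364 genes whose mean was at least 10 CPM, and its highest library was 1.24 times its lowest. Nr2e1 (0.107), Msi2 (0.118), Vim (0.124) and Fabp7 (0.128) also lay under the median of those genes, 0.161, and Pax6 (0.156) and Nes (0.161) lay close to it. Prom1 (0.387), Msi1 (0.395) and Hmga2 (0.561) varied more than 94.2%, 94.6% and 98.5% of the genes did, with highest-to-lowest ratios of 2.53, 2.89 and 4.24. The 3 genes of widest spread had the lowest mean CPM of the set: 14.9 for Prom1, 35.6 for Msi1 and 20.4 for Hmga2. The next was Nr2e1 at 40.2 CPM. Whether level has a part in the spread was not tested. Hmga2 rested on 226 reads in its lowest library and on 657 to 1202 in the others.

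**Figure D2:**
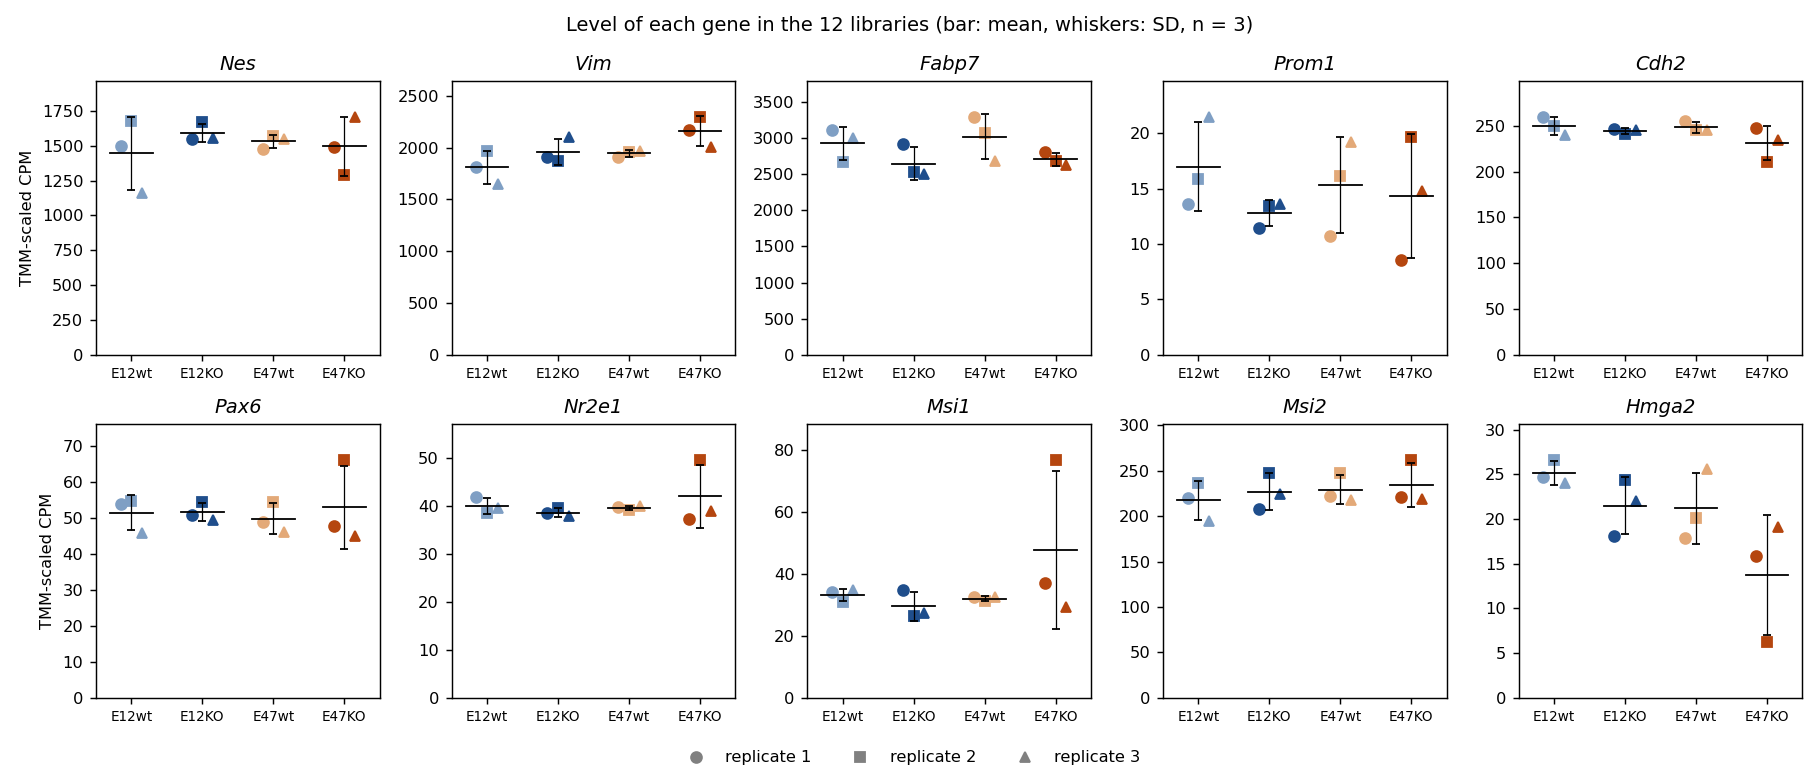
TMM-scaled CPM of each gene in the 12 libraries, 3 per group, with the mean (bar) and SD (whiskers); symbols give the replicate number and every axis starts at 0. Cdh2 is nearly flat, whereas Msi1 at 76.7 CPM and Hmga2 at 6.27 CPM in E47KO replicate 2 stand away from the other libraries.

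The first comparison asked how the set depends on E12. No gene of the set passed the test in E12KO: 0 of 10 were called, against 0.0407% of the 14755 genes tested (6 genes, edgeR quasi-likelihood test, Benjamini-Hochberg-adjusted p under 0.05). An unadjusted p under 0.05 was reached by 1 of the 10, against 8.96% of all genes. The groups did not overlap for 1 of the 10, against 13.7% of all genes. Fitted log2 fold changes lay between −0.41 and 0.14, with 4 above 0 and 6 below, and their median was −0.04 beside 0.0045 for all genes. The second comparison asked the same for E47. Again 0 of 10 genes were called, against 0.0134% of 14965 genes (2 genes), none of the 10 had an unadjusted p under 0.05 against 2.19% of all genes (Hmga2 did with same-numbered libraries paired), and the groups did not overlap for 1 of the 10, against 7.81%. The log2 fold changes lay between −0.64 and 0.56 with a median of −0.02 beside −0.0050 for all genes, and of −0.07 without E47KO replicate 2. Adjusted p-values were 0.534 or more in E12KO and 0.971 or more in E47KO.

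**Figure D3:**
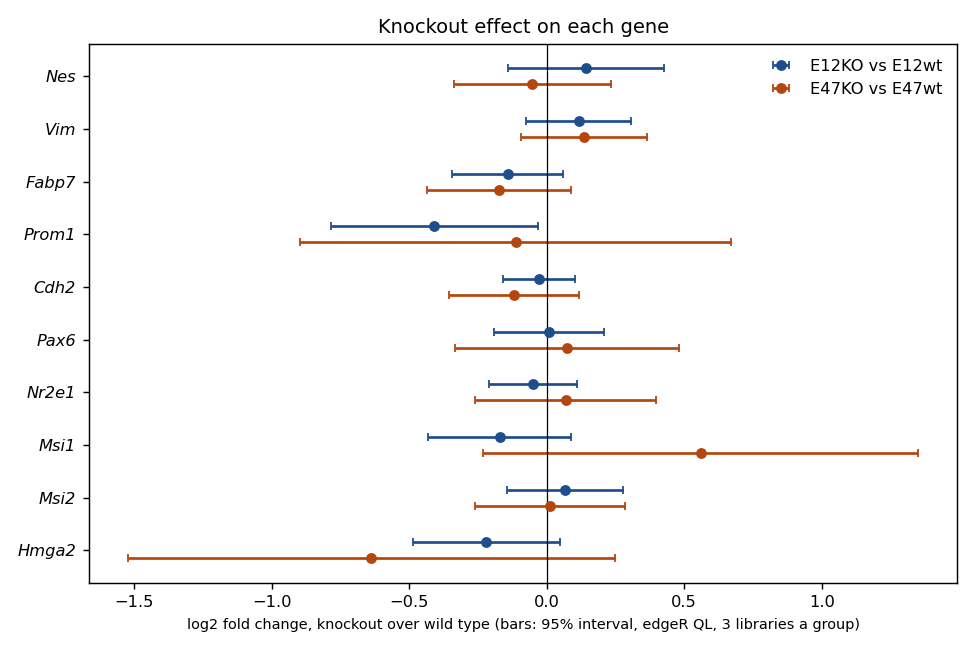
Log2 fold change of each gene, knockout over wild type, with its 95% interval (edgeR, 3 libraries a group), for the E12 line (blue) and the E47 line (orange). The E12 interval of Prom1 (−0.79 to −0.03) is the only one that does not span 0 before adjustment, and the E47 intervals of Prom1, Msi1 and Hmga2 are the widest.

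Among the fibre proteins, Nes measured 1500, 1680 and 1160 CPM in the E12wt libraries, against 1550, 1670 and 1560 CPM in the E12KO libraries. The lowest value was that of E12wt replicate 3, and the groups overlapped. Its log2 fold change was 0.14 ± 0.12 (SE, edgeR, adjusted p = 0.722), and without E12wt replicate 3 it was −0.0018. In the E47 line, Nes measured 1480, 1570 and 1550 CPM in the 3 wild-type libraries, against 1490, 1290 and 1710 CPM in the knockouts, so the knockout libraries lay on both sides of the wild type, with a log2 fold change of −0.05 ± 0.12, which turned to 0.04 ± 0.09 without E47KO replicate 2.

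Vim measured 1810, 1970 and 1650 CPM in the E12wt libraries, against 1910, 1870 and 2100 CPM in the E12KO libraries, with overlapping groups and a log2 fold change of 0.12 ± 0.08. In the E47 line it measured 1910, 1960 and 1970 CPM in the 3 wild-type libraries, against 2170, 2300 and 2010 CPM in the knockouts. All 3 E47KO libraries lay above all 3 E47wt libraries, as they did for 4.74% of all genes tested, but by little: 1950 ± 35.9 against 2160 ± 145 CPM (mean ± SD, n = 3). The log2 fold change of 0.14 ± 0.10 had a 95% interval of −0.09 to 0.37 and was not called (edgeR, adjusted p = 0.971), and without E47KO replicate 2 it was 0.09 ± 0.08.

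Fabp7 measured 3120, 2670 and 3000 CPM in the E12wt libraries, against 2920, 2530 and 2500 CPM in the E12KO libraries. Libraries of E47wt gave 3300, 3080 and 2690 CPM and those of E47KO 2810, 2680 and 2630 CPM. In both lines the mean was lower in the knockout but the groups overlapped. The log2 fold changes were −0.14 ± 0.09 (95% interval −0.35 to 0.06) and −0.17 ± 0.11 (−0.44 to 0.09), neither of them called with edgeR (adjusted p = 0.623 and 0.971). Without E47KO replicate 2 the value in E47KO was again −0.17 ± 0.11.

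Relatives of these proteins gave no calls either. Of 14 other intermediate filament and linked genes, 9 passed the low-count filter and 0 were called in either line, with median log2 fold changes of −0.07 (E12) and −0.06 (E47), the latter 0.09 without E47KO replicate 2. The nuclear lamins Lmnb1 and Lmnb2, the most abundant of them, had log2 fold changes of −0.07 and 0.03 in E12KO and −0.06 and 0.05 in E47KO. Gfap, the filament of mature astrocytes, stayed under 1 CPM in every library (0.272 to 0.955 CPM). Of 8 other fatty acid-binding protein genes only 3 passed the filter and 0 were called (medians 0.48 and −0.10, the latter 0.02 without E47KO replicate 2). Fabp5, the epidermal form, carried most of that family's reads and had log2 fold changes of 0.06 and −0.10, and Fabp1, the liver form, had 0.58 ± 0.80 and 0.09 ± 0.20 at a mean of 2.64 CPM.

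Among the membrane proteins, Prom1 showed the lowest p of the set in E12KO. It measured 13.6, 15.9 and 21.5 CPM in the E12wt libraries, against 11.4, 13.4 and 13.6 CPM in the E12KO libraries, or 17.0 ± 4.06 and 12.8 ± 1.20 CPM (mean ± SD, n = 3). The 3 knockout libraries lay below the 3 wild-type libraries, as for 6.95% of all genes tested, although the nearest libraries of the groups both round to 13.6 CPM. The fitted log2 fold change was −0.41 ± 0.17 with an unadjusted p of 0.0361 and was not called (edgeR, adjusted p = 0.534). Without E12wt replicate 3, the highest library, it was −0.22, and without E12wt replicate 1 it was −0.56. The authors' deposited table gave the same size, −0.41, with an adjusted p of 0.402.

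Prom1 varied in the E47 line as much within groups as between them. It measured 10.7, 16.1 and 19.2 CPM in the E47wt libraries, against 8.51, 19.7 and 14.8 CPM in the E47KO libraries, with overlapping groups and a log2 fold change of −0.11 ± 0.33. The value turned to 0.15 without E47KO replicate 1 and to −0.41 without E47KO replicate 2, so its direction rested on single libraries. In each of the 4 groups the library numbered 1 was the lowest for Prom1.

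Cdh2 was the steadiest gene of the set. It measured 260, 250 and 240 CPM in the E12wt libraries, against 247, 241 and 246 CPM in the E12KO libraries, with the knockout libraries inside the wild-type range. Its log2 fold change of −0.03 ± 0.06 had a 95% interval of −0.16 to 0.10, the narrowest of the set. The E47wt libraries held Cdh2 at 255, 245 and 245 CPM and the E47KO libraries at 248, 211 and 235 CPM, with overlapping groups and a log2 fold change of −0.12 ± 0.10 (−0.35 to 0.12). E47KO replicate 2 was the lowest of all 12 libraries, and without it the value was −0.06 ± 0.07. Of 24 other genes of the apical junction and polarity complexes, all passed the filter and 0 were called, with median log2 fold changes of 0.07 and −0.02 (the latter −0.05 without E47KO replicate 2). Beta-catenin (Ctnnb1), which links cadherins to the cytoskeleton, had log2 fold changes of 0.0046 ± 0.06 and −0.05 ± 0.09, and p120 catenin (Ctnnd1) 0.08 ± 0.08 and −0.03 ± 0.11.

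Among the transcription factors, Pax6 measured 53.8, 54.6 and 45.8 CPM in the E12wt libraries, against 50.9, 54.4 and 49.4 CPM in the E12KO libraries. The groups overlapped and the log2 fold change was 0.01 ± 0.09 (95% interval −0.19 to 0.21). The E47wt libraries gave 48.9, 54.4 and 46.0 CPM and the E47KO libraries 47.7, 66.1 and 44.9 CPM, with E47KO replicate 2 alone above the rest. The log2 fold change was 0.07 ± 0.17, and −0.12 without that library. In each of the 4 groups the library numbered 2 was the highest and the library numbered 3 the lowest for Pax6.

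Genes that Pax6 is known to activate in the cortex were barely expressed in these cells, apart from Fabp7 itself. Of the 4 listed (Neurog2, Eomes, Tfap2c and Fabp7), 3 passed the filter and 0 were called, with medians of −0.14 and −0.17. Neurog2, a proneural factor and an E protein partner, measured 1.52, 1.34 and 3.03 CPM in the E12wt libraries, against 0.868, 0.925 and 0.665 CPM in the E12KO libraries. The knockout libraries lay below the wild type, and the log2 fold change of −1.25 ± 0.34 was not called (edgeR, adjusted p = 0.507). In E47KO its value was −0.36 ± 0.65. Eomes, the T-box factor of intermediate progenitors, lay the other way in the E12 line, at 0.650, 0.586 and 0.301 CPM in the wild-type libraries and 0.719, 1.00 and 1.14 CPM in the knockouts. Its log2 fold change of 0.89 ± 0.34 was not called (edgeR, adjusted p = 0.528), and in E47KO it was −0.07 ± 0.27. Between the wild types, with no deletion, E47wt also lay below E12wt for Neurog2 (−0.96 ± 0.36) and above it for Eomes (0.74 ± 0.32), with groups that did not overlap and no call.

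Nr2e1 was level across groups. The E12wt libraries gave 42.0, 38.7 and 39.7 CPM and the E12KO libraries 38.6, 39.6 and 37.9 CPM. The E47wt libraries gave 39.8, 39.2 and 40.0 CPM, those of E47KO 37.4, 49.7 and 39.1 CPM. All libraries but E47KO replicate 2 lay between 37.4 and 42.0 CPM. The log2 fold changes were −0.05 ± 0.07 in E12KO and 0.07 ± 0.14 in E47KO, the latter −0.07 without that library. Cdkn1a, the cell cycle inhibitor p21 and a gene that Nr2e1 is known to repress, had log2 fold changes of 0.40 ± 0.13 in E12KO (edgeR, adjusted p = 0.523) and −0.27 ± 0.21 in E47KO and was called in neither.

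Among the RNA-binding proteins, Msi1 measured 34.1, 31.0 and 34.6 CPM in the E12wt libraries, against 34.7, 26.5 and 27.2 CPM in the E12KO libraries. The groups overlapped through E12KO replicate 1, and the log2 fold change was −0.17 ± 0.11 (edgeR, adjusted p = 0.639). Without that library it was −0.31 ± 0.10, with an unadjusted p of 0.0136 (edgeR, adjusted p = 0.415), and without E12KO replicate 2 it was −0.10. In the E47 line it measured 32.4, 31.1 and 32.5 CPM in the 3 wild-type libraries, against 37.0, 76.7 and 29.2 CPM in the knockouts. E47KO replicate 2 was 2.32 times the mean of the other E47KO libraries, which lay on either side of the wild type. The log2 fold change of 0.56 ± 0.34 had a 95% interval of −0.23 to 1.35 and was not called (edgeR, adjusted p = 0.971), and without that library it was 0.03 ± 0.13.

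Msi2, the close relative of Msi1, did not share this spread. The E12wt libraries gave 220, 237 and 195 CPM and the E12KO libraries 208, 248 and 225 CPM. For E47wt the values were 222, 248 and 218 CPM and for E47KO 221, 262 and 219 CPM. The groups overlapped in both lines, and in each of the 4 groups the library numbered 2 was the highest. The log2 fold changes were 0.07 ± 0.09 and 0.01 ± 0.12, and the latter was −0.08 ± 0.09 without E47KO replicate 2. Of 12 other neural RNA-binding protein genes, all passed the filter and 0 were called, with medians of −0.08 and −0.11 (the latter −0.06 without E47KO replicate 2). Qk, the quaking protein of glial progenitors, had log2 fold changes of −0.10 ± 0.08 and −0.08 ± 0.10, and Celf1 −0.01 ± 0.06 and −0.12 ± 0.14.

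Hmga2, whose let-7 matches are printed above, measured 24.7, 26.6 and 24.0 CPM in the E12wt libraries, against 18.1, 24.4 and 22.0 CPM in the E12KO libraries. The E12KO libraries lay lower on average, 21.5 ± 3.17 against 25.1 ± 1.35 CPM (mean ± SD, n = 3), but E12KO replicate 2 lay within the wild-type range. The log2 fold change was −0.22 ± 0.12 (95% interval −0.49 to 0.05; edgeR, adjusted p = 0.578). It moved to −0.11 without E12KO replicate 1 and to −0.33 without E12KO replicate 2, the latter with an unadjusted p of 0.0226 (edgeR, adjusted p = 0.510). In the E47 line Hmga2 measured 17.9, 20.1 and 25.6 CPM in the 3 wild-type libraries, against 15.9, 6.27 and 19.1 CPM in the knockouts. E47KO replicate 2 was 0.358 times the mean of the other E47KO libraries, and E47KO replicate 3 lay inside the wild-type range. The log2 fold change of −0.64 ± 0.38 had a 95% interval of −1.52 to 0.25 and was not called (edgeR, adjusted p = 0.971), and without E47KO replicate 2 it was −0.29 ± 0.18. Each E47KO library lay below the E47wt library of the same number, and with the replicate number as a block the value was −0.75 ± 0.30, with an unadjusted p of 0.0498 and no call (edgeR, adjusted p = 0.866). Without E47KO replicate 3, Hmga2 (−0.92) and Msi1 (0.83) had unadjusted p-values of 0.0469 and 0.0199 (edgeR, adjusted p = 0.505 for both).

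Other genes of the let-7 and fetal growth programme that Hmga2 belongs to gave 0 calls of 10 tested in the E12 line and of 9 in the E47 line, out of 12 listed. Their median log2 fold changes were −0.15 and −0.11, with 7 below 0 in each line, and the latter median was 0.02 without E47KO replicate 2. Igf2bp3, an RNA-binding protein of fetal tissues, had −0.07 ± 0.06 and −0.13 ± 0.13, and Dicer1, which matures microRNAs, 0.02 ± 0.08 and −0.20 ± 0.21. Lin28a and Lin28b, the blockers of let-7 maturation, were at 0.216 CPM or less in every library, where a few reads decide the value.

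**Figure D4:**
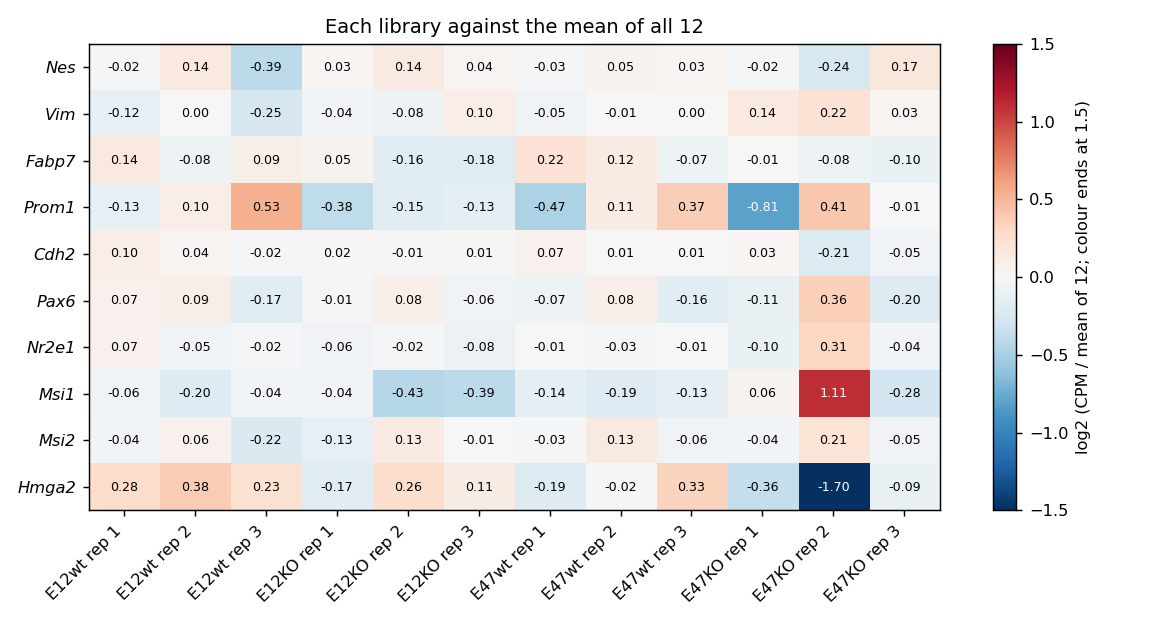
Log2 ratio of each gene's CPM in each library to its mean over the 12 libraries; blue is lower, red is higher, and the number is in each cell. The column of E47KO replicate 2 holds the extremes, 1.11 for Msi1 and −1.70 for Hmga2, and Prom1 varies across all groups.

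E47KO replicate 2 held the highest value of the 12 libraries for 5 genes of the set (Vim, Pax6, Nr2e1, Msi1 and Msi2) and the lowest for 2 (Cdh2 and Hmga2). That is 7 of 10, and over the 9364 genes with a mean of at least 10 CPM the same library was at an end for 67.5%, so the share in the set was close to that of all genes. The size of the shift was less common for a pair of them: its ratio to the other E47KO libraries was farther from 1 in 4.30% of genes than for Msi1 and in 2.08% than for Hmga2. For Pax6 (1.43 times) and Nr2e1 (1.30 times) 30.3% and 43.6% of genes were farther from 1. Across the 12 libraries log2 CPM of Msi1 and Hmga2 correlated at Pearson r = −0.897 and that of Nr2e1 and Msi1 at 0.865, a description to which this one library contributes most.

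Marker genes of several cell states moved in the same library, as did lists that mark no cell state. The 10 astrocyte markers summed to 2010 CPM in E47KO replicate 2 and to 928 to 1490 CPM in the other 11 libraries. Apoe was at 285 against 19.8 to 47.8 CPM and Aqp4 at 24.0 against 1.66 to 4.84 CPM, both named after their values were seen. In the E47KO fit of all 6 libraries, 8 astrocyte genes lay above 0. The 2 below were Sparcl1 (−0.12), the most abundant of the list, and Slc1a2 (−0.11). The 11 intermediate progenitor genes summed to 528 CPM against 264 to 343 CPM. The 22 other stem cell genes summed to 9880 CPM against 7060 to 8780 CPM: Hes5 (966 CPM), Notch1 (483 CPM) and Ednrb (1290 CPM) were above, and Tnc (407 CPM) below, all the other libraries. The 14 neuron genes summed to 1160 CPM against 1200 to 1500 CPM, with Gap43 at 41.1 CPM. Of the 12 neuron genes tested in E47KO, 11 lay below 0 and 1, Tubb3 (0.26), above. The 12 genes of the let-7 and fetal list summed to 275 CPM against 324 to 394 CPM. The 14 intermediate filament genes summed to 439 against 527 to 674 CPM, and the 8 fatty acid-binding genes to 288 against 322 to 393 CPM. The 12 neural RNA-binding genes summed to 2340 against 2600 to 3050 CPM. Inside the range of the other libraries lay the 11 oligodendrocyte genes (1530 against 965 to 1600 CPM) and the 24 apical junction genes (3890 against 3520 to 3910 CPM). The part of these shifts in the values of Msi1 and Hmga2 was not tested, and in bulk RNA fewer cells of a type and less RNA per cell cannot be told apart.

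**Figure D5:**
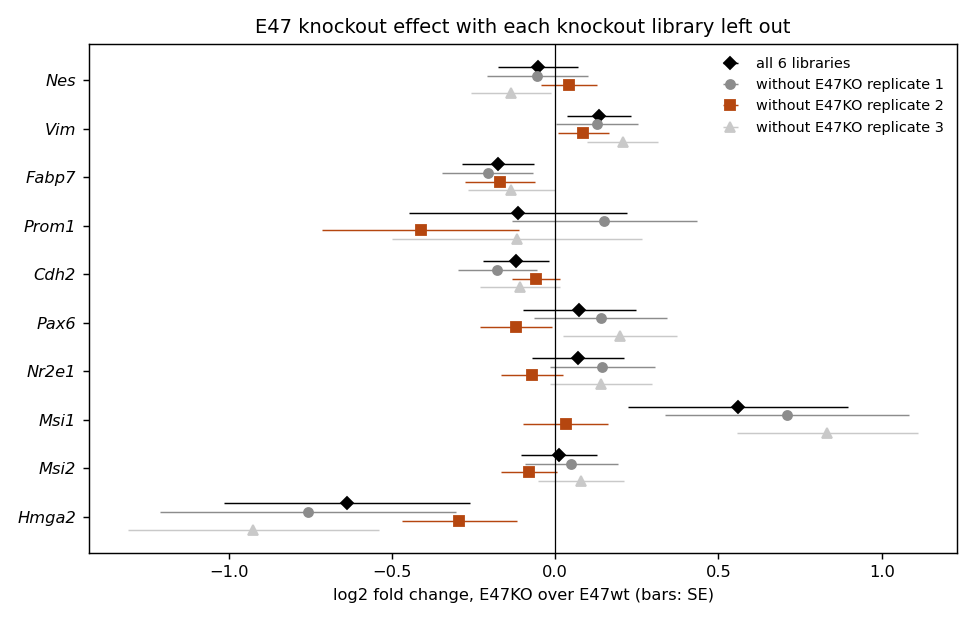
Log2 fold change of each gene in E47KO over E47wt with its SE, from all 6 libraries (black diamonds) and with each knockout library left out in turn. Without E47KO replicate 2 (orange squares) Msi1 moves from 0.56 to 0.03 and Hmga2 from −0.64 to −0.29, Vim from 0.14 to 0.09, and Fabp7 stays at −0.17.

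Whether the set responded differently to the loss of the 2 isoforms was asked of an interaction term fitted over the 12 libraries. All E12 libraries had high Xist, all E47KO libraries low Xist, and E47wt held both kinds. The term is therefore partly confounded with sex. None of the 10 genes was called, nor was any of 15277 genes (0%, edgeR, and 463 genes, or 3.03%, had an unadjusted p under 0.05, with none of the 10 among them). DESeq2 called 1 gene of all and none of the set. The values farthest from 0 were those of Msi1, 0.74 ± 0.39 (95% interval −0.12 to 1.59), and Hmga2, −0.41 ± 0.43 (−1.34 to 0.52), and without E47KO replicate 2 they were 0.21 and −0.06. Without E47KO replicate 3, Msi1 had 1.00 with an unadjusted p of 0.00782 (edgeR, adjusted p = 0.425). For Vim (0.02 ± 0.13) and Fabp7 (−0.03 ± 0.14) the knockout effects of the lines lay close together, with 95% intervals of the difference of −0.25 to 0.30 and −0.34 to 0.29.

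The wild types of the lines were also compared, as a measure of how far the set differs between cultures that carry no deletion. No gene of the set was called, nor any of 14892 genes (0%, edgeR, with 568 genes, or 3.81%, at an unadjusted p under 0.05 and none of the 10 among them). DESeq2 called 8 genes, none of the set. Hmga2 had the value farthest from 0, −0.25 ± 0.13 (95% interval −0.56 to 0.06). It moved to −0.13 without E47wt replicate 1 and to −0.40 without E47wt replicate 3, the latter with an unadjusted p of 0.00559 (edgeR, adjusted p = 0.738). The wild-type groups overlapped for all 10 genes, while they did not for 9.43% of all genes. Line, litter and preparation cannot be told apart in this comparison, and E47wt replicate 2 also differed in sex from the other wild-type libraries.

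The cells were checked against markers of stem cells and of other cell types. Of the 22 other stem cell genes, 21 passed the filter and 0 were called in either line (medians 0.07 and 0.13). Ptprz1, a receptor phosphatase of radial glia, had log2 fold changes of 0.07 ± 0.10 and −0.27 ± 0.13, and Slc1a3, the glutamate transporter GLAST, 0.13 ± 0.10 and −0.18 ± 0.11. No intermediate progenitor gene of 10 tested was called (medians −0.19 and 0.30), with Btg2 at −0.11 and 0.33 and the Notch ligand Dll1 at −0.38 and 0.28. No neuron gene of 12 tested was called (−0.31 and −0.37), with Map2 at 0.03 and −0.14 and Gap43 at −0.10 and −0.67. No astrocyte gene of 10 was called (0.29 and 0.57), with Sparcl1 at 0.36 and −0.12 and Mlc1 at 0.39 and 0.25. No oligodendrocyte gene of 9 was called (−0.60 and 0.06), with Olig1 at −0.10 and 0.06 and Olig2 at −0.17 and −0.01. All 9 oligodendrocyte genes lay below 0 in E12KO, while 5 lay above and 4 below in E47KO. In E12KO, 6 of 21 stem cell and 5 of 10 intermediate progenitor genes had an unadjusted edgeR p under 0.05. So did 4 of 12 neuron, 2 of 10 astrocyte and 4 of 9 oligodendrocyte genes, against 8.96% of all genes. In E47KO the counts were 0, 1, 2, 2 and 0, against 2.19%. The lists were chosen with earlier results known, so these counts are a description only. Without E47KO replicate 2 the E47 medians were −0.02 (stem cell), 0.06 (intermediate progenitor), −0.23 (neuron), 0.04 (astrocyte) and −0.32 (oligodendrocyte), again with 0 calls.

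Markers of cells from outside the neural lineage were low but above the floor of 3 reads as sums. The 7 endothelial and 8 microglial genes summed to 2.58 to 7.29 and 2.29 to 9.50 CPM per library. Only 4 endothelial genes passed the filter in each line, and 2 microglial genes in the E12 line and 1 in the E47 line. None of those tested was called. Kdr had log2 fold changes of −0.15 and −0.75, Tek 0.76 and −0.26, and Cd68 −0.40 and 0.05. Laptm5, tested in the E12 line only, had −0.31. The 10 mesenchyme and meninges genes summed to 9.82 to 43.5 CPM, led by Acta2 and Foxc1 (means 14 and 6.57 CPM). In E12KO 3 of 7 tested were called lower, against 6 calls (0.0407%) among all 14755 genes. In E47KO it was 0 of 6, against 2 calls (0.0134%) among all 14965 genes (medians −1.83 and −0.37). This list was drawn up with earlier results of these data known, so its calls are a description only. Col1a2 (log2 fold change −5.28), Bgn (−3.45) and Col1a1 (−1.83) fell in E12KO from 3.98 CPM or less (edgeR, adjusted p = 0.00433, 0.00433 and 0.0105). In E47KO, Col1a1 and Bgn had −1.07 ± 0.82 and −0.98 ± 1.02, with E47wt replicate 1 the highest library for both, at 6.88 and 2.69 CPM. Acta2 and Foxc1 had −0.26 and 0.45 in E12KO and 0.31 and −0.05 in E47KO, none of them called. Which cells these transcripts came from, and whether such cells have a part in the values of the stem cell genes, was not tested.

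The genes whose pattern over the 12 libraries was most like that of each member were found by Pearson correlation of log2 CPM among 9363 other genes with a mean of at least 10 CPM. For Nes they were Sptan1 (r = 0.921) and Hcfc1 (0.915), for Vim Smo (0.956) and Ckb (0.955), for Fabp7 Ephb1 (0.857) and Glod4 (0.855), and for Prom1 Rab3gap1 and Adcy2 (both 0.894). For Pax6 they were Klhl24 (0.973) and Washc2 (0.964), for Nr2e1 Prune1 (0.947) and Acadsb (0.941), for Cdh2 Mthfd2l (0.955) and Sub1 (0.950), and for Msi2 Ric1 (0.952) and Spata6 (0.947). For Msi1 they were Dpf2 (0.987) and Mocs1 (0.985), and for Hmga2 Trim44 (0.969) and Slc30a5 (0.965). None of the 10 genes was among the most alike of another. These correlations share libraries and depth, and E47KO replicate 2 weighs on most of them.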

How the data were processed

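RNA of the 12 libraries was sequenced with a protocol that keeps strand, per the labels' protocols. For each library the authors deposited the read count of every gene, with both strands together and each strand alone. The submitters' processing notes name STAR 2.5 and genome build mm9; the release of the annotation was not given in the sources used here. Counts of the strand opposite to the read, which held 97.13 to 97.24% of stranded gene reads, were used. The authors' deposited tables, 1 per line, give normalized signal for each library, which is the count of both strands scaled by a constant of that library. They also give the authors' log2 fold changes, a score that divides each of these by its SE, and p-values; DESeq2 and DESeq are named in the submitters' processing notes.

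Symbols came from a GRCm38 gene table by Ensembl ID, which named 32897 of 37620 IDs, and the deposited tables named 10 more. Counts were tested in R 4.3.3 with edgeR 4.0.16 (quasi-likelihood F test, filterByExpr by group, TMM, prior count 0.125, two-sided), adjusted by Benjamini-Hochberg over all genes tested and called at 0.05. A fit held the 6 libraries compared, or all 12 for the interaction. SE is the absolute log2 fold change over the square root of F. TMM factors for CPM were taken over the 12 libraries, and exon lengths from GENCODE vM21. The edgeR fits of the 4 comparisons were tested on simulated data. Alternatives were DESeq2 1.42.0, RLE normalization, no low-count filter, both-strand counts, all 12 libraries, a replicate block, a sex covariate and leaving out each library. No pair of libraries of a group agreed within sampling noise (chi-square over its degrees of freedom 12.5 or more).

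The 10 genes, the 15 other gene lists and the tests were chosen with earlier results of these data known. Named in each other list were up to 3 called genes, or else the 2 of highest mean CPM. Further genes of those lists (Gfap, Neurog2, Eomes, Lin28a, Lin28b, Apoe, Aqp4, Hes5, Notch1, Ednrb and Tnc) were named after their values were seen. The counts and medians of 1 list, genes repressed by Nr2e1, are not reported here. Deviations from the group means of same-numbered E47wt and E47KO libraries correlated over genes at 0.118, 0.230 and 0.467. Of the different-numbered pairs, E47wt replicate 1 and E47KO replicate 2 correlated at 0.15, above the lowest of these. The remaining different-numbered pairs were negative. Deviations within a group cancel out, so positive pairs bring negative ones with them, and these signs say little about pairing. Neither these values nor a label settles whether the numbers pair that line's libraries. The main tests were unpaired, and pairing was used only as an alternative. The floor of 3 reads covers counting error only.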

Additional observations from a re-analysis of the deposited data

How the results depend on the processing

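None of the 10 genes was called in any of the 4 comparisons under any of the 55 alternatives run. Over all genes, the count called in E12KO was 6, but 99 with DESeq2, 20 without the low-count filter, 2 with all 12 libraries in the fit and 2 to 10 with 1 library left out, the lowest without E12KO replicate 2 or 3 and the highest without E12wt replicate 3. In E47KO it was 2, but 6 with DESeq2, 1 with a sex covariate and 0 (without E47wt replicate 3) to 7 (without E47wt replicate 2) with 1 library left out. In the interaction it was 0, but 1 with DESeq2 and 0 to 1 with 1 library left out (1 without E47wt replicate 2), and between the wild types 0, but 8 with DESeq2 and 1 with all 12 libraries in the fit. The cause was not tested.

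With the replicate block, which pairs same-numbered libraries, 4 genes were called in E12KO and 2 in E47KO, and no call in the set changed. E47KO values were 0.43 for Msi1 and −0.75 for Hmga2 (edgeR, adjusted p = 0.866 for both), the latter with an unadjusted p of 0.0498. Same-numbered E12 libraries correlated at 0.103, 0.0673 and −0.0165, and E12wt replicate 2 and E12KO replicate 3 at 0.159. By their labels, same-numbered libraries of either line share only a number.

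Directions that turned were those of values from −0.15 (Prom1 between the wild types) to 0.14 (Nes in E12KO). Some values nearer 0, such as Cdh2 in E12KO (−0.03), kept theirs. With a sex covariate Pax6 was −0.058 and Msi2 −0.10 in E47KO, and the interaction of Pax6 −0.060. With 1 library left out, log2 fold changes ranged in E12KO from −0.0018 to 0.27 (Nes), −0.078 to 0.054 (Pax6) and −0.017 to 0.13 (Msi2), always lowest without E12wt replicate 3. In E47KO they ranged from −0.14 to 0.044 (Nes), −0.41 to 0.15 (Prom1), −0.12 to 0.20 (Pax6), −0.071 to 0.14 (Nr2e1) and −0.079 to 0.079 (Msi2). In the interaction they ranged from −0.036 to 0.094 (Vim), −0.10 to 0.055 (Fabp7), −0.12 to 0.19 (Pax6), −0.0097 to 0.20 (Nr2e1) and −0.13 to 0.033 (Msi2). Between the wild types they ranged from −0.054 to 0.21 (Nes), −0.021 to 0.12 (Fabp7), −0.34 to 0.054 (Prom1), −0.13 to 0.013 (Pax6), −0.044 to 0.020 (Nr2e1) and −0.046 to 0.021 (Cdh2). Values that kept their direction with 1 library left out also moved. In E12KO they ranged from 0.046 to 0.18 (Vim), −0.22 to −0.098 (Fabp7), −0.56 to −0.22 (Prom1), −0.074 to −0.023 (Nr2e1), −0.31 to −0.10 (Msi1), −0.068 to −0.0079 (Cdh2) and −0.33 to −0.11 (Hmga2). In E47KO the ranges were 0.086 to 0.21 (Vim), −0.24 to −0.11 (Fabp7), 0.032 to 0.83 (Msi1), −0.18 to −0.059 (Cdh2) and −0.92 to −0.29 (Hmga2). The interaction ranged from −0.31 to −0.047 (Nes), 0.0095 to 0.57 (Prom1), 0.21 to 1.00 (Msi1), −0.14 to −0.017 (Cdh2) and −0.70 to −0.062 (Hmga2). Between the wild types the ranges were 0.036 to 0.17 (Vim), −0.10 to −0.032 (Msi1), 0.0002 to 0.14 (Msi2) and −0.40 to −0.13 (Hmga2). The medians of the other gene lists in E47KO were recomputed without E47KO replicate 2, an alternative chosen after seeing the data. The member with the fewest reads had 226 in its lowest library.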

Other observations

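Libraries with the same replicate number tended to take the same place in their groups for some of these genes. The library numbered 1 was the highest of its group in all 4 groups for Fabp7 and Cdh2, and the lowest in all 4 for Prom1. The library numbered 2 was the highest in all 4 for Pax6 and Msi2, and the library numbered 3 the lowest in all 4 for Pax6. The same number was thus highest in every group for 4 of the 10 genes and lowest for 2, against 11% and 9.95% of the 9364 genes with a mean of at least 10 CPM. Pax6 did both, as did 211 of those genes. Same-numbered wild-type libraries of the 2 lines, which share no animals by their labels, correlated in their deviations at 0.0671, 0.276 and 0.302 over 14892 genes. Different-numbered wild-type pairs lay between −0.285 and 0.13. The highest of them, E12wt replicate 1 with E47wt replicate 2, was above the lowest same-numbered value. No label says what the numbers stand for, and the shares were not tested.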
